A study of Mus musculus with 2 samples.

Results

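The coagulation and fibrinolysis genes are 38 genes chosen by symbol for their roles in clotting, in its inhibition, in the removal of clots, and in the processing and export of clotting proteins. Of these, 18 were grouped as procoagulant factors, 9 as inhibitors of coagulation, 7 as fibrinolysis and 4 as vitamin K cycle and export. A gene row was present for 37 of the 38 among 43346 annotated genes, and Klkb1, which encodes plasma prekallikrein, is described on its own. RNA was measured in whole liver of B6NCrl mouse embryos at embryonic day 13.5, pooled from males and females. The series holds 1 group with 2 biological replicates that share a donor entry in the labels, with 10 ng of input RNA (total, over 200 nt) for each library and spike-in RNAs added. There was no second tissue, age or treatment, so the data give levels, ratios between genes and the spread between the replicates, and an SD (n = 2) covers no more than the spread of these samples, which may be technical.

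Clotting runs through a cascade of plasma proteases that ends when thrombin turns fibrinogen into fibrin. Serpins, tissue factor pathway inhibitor and the protein C pathway restrain the cascade, and plasmin, made from plasminogen, dissolves fibrin. Most of these proteins are made by hepatocytes, several others by endothelial cells and megakaryocytes, and the vitamin K-dependent ones need gamma-carboxylation in the endoplasmic reticulum before secretion. At this stage the liver is also the main site of blood formation in the embryo.

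Expected counts on annotated genes were 39182457 in replicate 1 and 37432977 in replicate 2. Spike-ins took 1.16% and 1.88% of all counts. The chi-square statistic of the gene counts was 23.6 per degree of freedom, so the libraries differed beyond counting error. Of 14 hepatoblast markers, 13 reached 1 TPM in both libraries, where TPM is a transcript level scaled for length and depth, led by Afp and Apoa2 at 6219 ± 832 and 3354 ± 190.2 TPM. The hepatoblast list summed to 18062 and 20094 TPM in replicates 1 and 2, and the member below 1 TPM was Fgl1, at 0.28 and 0.17 TPM. Markers of other cells were there too. Summed over their lists, 12 megakaryocyte and platelet genes held 879 and 829 TPM, led by Pf4 and Ppbp. The 12 endothelial genes held 124 and 146 TPM, led by Lyve1 and Oit3, and the 10 erythroid genes held 201016 and 179935 TPM, led by Hba-a2 and Hba-a1. The 12 macrophage genes held 268 and 282 TPM (C1qb and Vcam1 highest), the 10 granulocyte and monocyte genes 1219 and 1143 TPM (S100a8 and Mpo), and the 11 stellate and mesenchymal genes 377 and 398 TPM (Col3a1 and Col1a1). Lower sums were seen for mesothelial genes (15.7 and 18.6 TPM, Upk3b and Krt19), neuron genes (8.19 and 5.70 TPM, Stmn2 and Tubb3) and skeletal muscle genes (62.2 and 48.9 TPM, Mylpf and Acta1). In whole tissue, fewer cells of a type and less RNA per cell cannot be told apart.

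The upstream sequences of 5 members are shown as examples from the upper and lower ends of the order. The 3 fibrinogen chain genes lie side by side and stood among the 6 highest members, and F9 and Hrg stood among the 4 lowest. Each run is read 5′ to 3′ on the strand of the gene and ends just before the annotated start, from the RefSeq sequence of build GRCm38.p6. The windows are 250 bases long, except for Fga, whose window was shortened to the 173 bases outside the annotated gene. Capitals mark matches to a half-site of HNF4 (CAAAGT) or of HNF1 (GTTAAT), or to the C/EBP motif (TTGCNNAA), searched on both strands. HNF1, HNF4 and C/EBP are transcription factors of the liver.
Fga: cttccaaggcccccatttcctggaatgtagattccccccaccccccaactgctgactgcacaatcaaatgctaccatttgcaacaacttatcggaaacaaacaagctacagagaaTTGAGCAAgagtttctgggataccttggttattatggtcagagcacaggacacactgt
Fgg: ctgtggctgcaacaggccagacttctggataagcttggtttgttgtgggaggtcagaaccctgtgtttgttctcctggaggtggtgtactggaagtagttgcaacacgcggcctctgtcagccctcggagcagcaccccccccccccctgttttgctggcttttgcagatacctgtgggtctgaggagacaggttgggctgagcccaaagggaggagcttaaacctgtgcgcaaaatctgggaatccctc
Fgb: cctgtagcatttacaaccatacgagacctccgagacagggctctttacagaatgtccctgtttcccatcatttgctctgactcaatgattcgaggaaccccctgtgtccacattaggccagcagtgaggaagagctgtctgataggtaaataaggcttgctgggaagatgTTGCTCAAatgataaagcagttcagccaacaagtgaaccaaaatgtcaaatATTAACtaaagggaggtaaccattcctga
F9: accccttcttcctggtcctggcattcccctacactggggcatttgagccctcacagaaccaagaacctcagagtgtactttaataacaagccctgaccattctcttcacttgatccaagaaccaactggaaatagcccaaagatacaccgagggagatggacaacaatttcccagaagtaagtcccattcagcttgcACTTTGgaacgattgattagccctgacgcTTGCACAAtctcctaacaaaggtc
Hrg: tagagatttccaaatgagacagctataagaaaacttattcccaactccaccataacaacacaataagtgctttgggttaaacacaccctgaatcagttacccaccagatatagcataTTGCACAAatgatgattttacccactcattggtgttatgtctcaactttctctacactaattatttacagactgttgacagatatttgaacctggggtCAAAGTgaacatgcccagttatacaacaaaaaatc
These windows lie at chr3:83025903-83026075 (plus strand), chr3:83007474-83007723 (plus strand), chr3:83049864-83050113 (minus strand), chrX:59999214-59999463 (plus strand) and chr16:22950822-22951071 (plus strand), in the order shown. The C/EBP motif was found in the printed windows of Fga, Fgb, F9 and Hrg, the HNF4 half-site in those of F9 and Hrg, and the HNF1 half-site in that of Fgb. The full window of Fga also holds an HNF1 half-site, in the bases not printed. In the windows of 250 bases, C/EBP was held by 9.56% of all 32851 promoters and by 9 of the 29 members with a promoter entry. The HNF4 half-site was held by 12.6% of all promoters and by 9 of those members, and the HNF1 half-site by 6.43% and 5. The TATAAA motif was held by 12.4% of promoters and by 1 of those members, Tfpi. For the shares of all promoters each promoter counted once, whereas a member counted if any of its promoter entries held the motif. The units thus differ, and the shares are not like for like. Matches are given as descriptions of the letters, and they were found in low members as well as in high ones.

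Of the 37 members with a row, 32 (86.5%) reached 1 TPM in both libraries, against 52.1% of the 21474 protein-coding genes. At 100 TPM in both libraries the members numbered 9, or 24.3%, against 4.92% of protein-coding genes. The members were picked by role and include many secreted liver proteins, so these shares describe this choice of genes. Together they held 0.273% ± 0.0303 of the TPM of all annotated genes, with 0.251% in replicate 1 and 0.294% in replicate 2. The level spanned 1057-fold, and 3 members (Serpinf2, Serpinc1 and Fga) held 35.4% and 36.0% of the members' summed TPM.

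**Figure D1:**
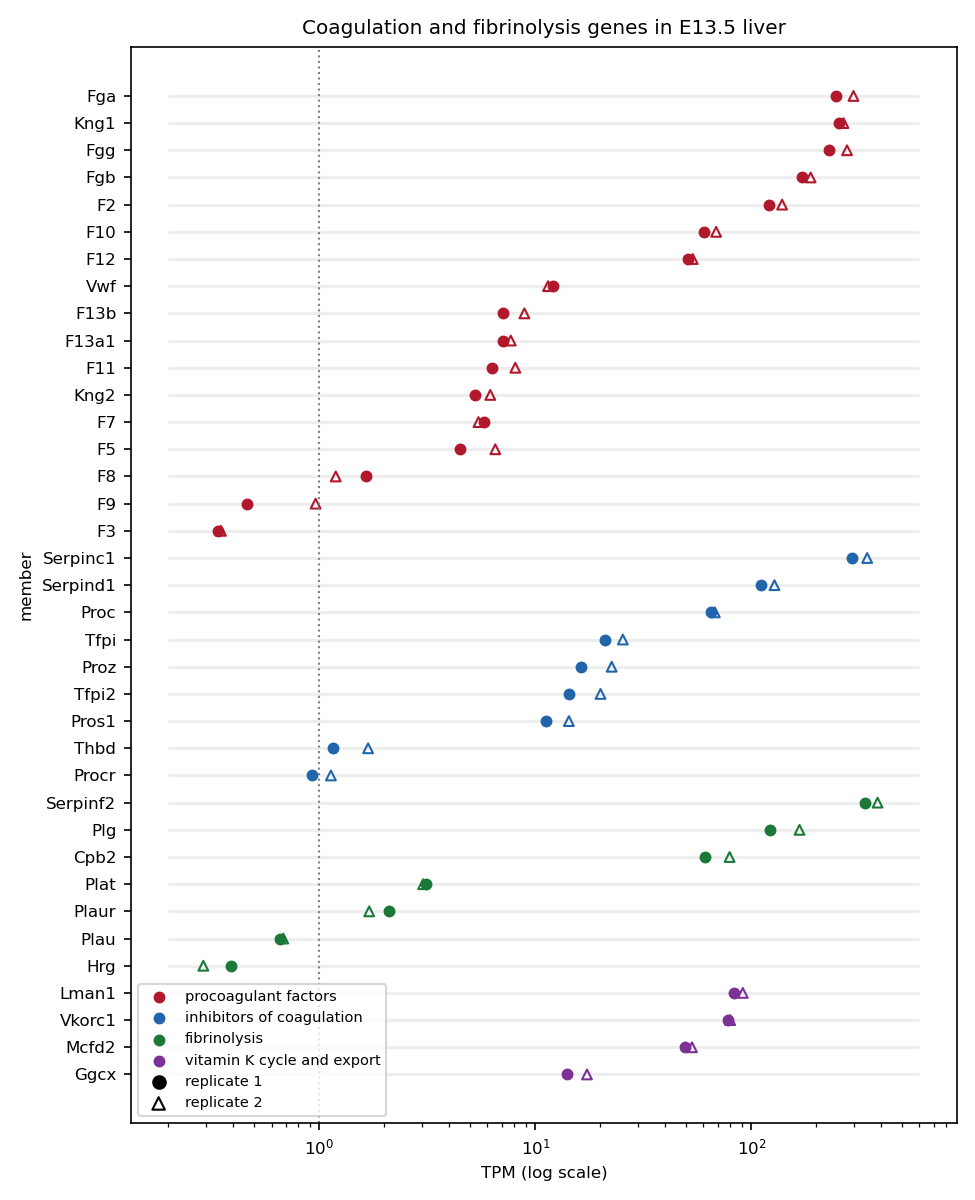
TPM of each member (log axis) in replicate 1 (filled circles) and replicate 2 (open triangles), grouped by role and ordered by mean level within it, with a dotted line at 1 TPM. Each of the 4 roles except vitamin K cycle and export spans from below or near 1 TPM to above 100 TPM.

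Ordered by mean TPM, the 37 members form 36 neighbouring pairs, and in 23 of them the ranges of the 2 replicates overlapped. Of these 23 pairs, 12 kept 1 order within each library, such as Serpinf2 over Serpinc1, and 11 did not, such as Fga and Kng1. The 13 gaps where ranges did not overlap include those below Fgg, Fgb, Serpind1, Lman1, F10 and Mcfd2.

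Procoagulant factors lay at a median of 8 ± 1.26 TPM across the 17 with a row (3.01 ± 0.23 as median log2(TPM + 0.1)), and 15 of them reached 1 TPM in both libraries. They held 47.7% ± 0.581 of the members' summed TPM. The fibrinogen chains, which form the fibrin network, and the kininogen Kng1 were the 4 highest of them. Fga (alpha chain, chromosome 3, 83026076 to 83033627) stood at 247.54 and 296.97 TPM in replicates 1 and 2. Fgg (gamma chain) stood at 229.74 and 277.23 TPM and Fgb (beta chain) at 171.41 and 188.05 TPM. The range of Fgb did not overlap those of Fga and Fgg, whereas Fga and Fgg overlapped. The genes lie 11 kb (Fgg to Fga) and 6.5 kb (Fga to Fgb) apart on chromosome 3. The chains held 26.5% ± 0.332 of the members' TPM.

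The order of the fibrinogen chains turned with the measure. In TPM, Fga was 1.51 ± 0.0955 times and Fgg 1.41 ± 0.0947 times Fgb, or 0.59 ± 0.09 and 0.49 ± 0.10 on the log2 scale. In expected counts, which are not corrected for length, the log2 ratios were −0.20 ± 0.09 and −0.72 ± 0.10. Fgb has 1 annotated transcript of 3810 nt in the tables, the mean length of Fga was 2245 nt and that of Fgg 1703 nt in replicate 1. The counts of Fgb (24090 and 23732) were thus the highest of the 3, and its TPM the lowest.

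Below these 4 came prothrombin. F2, which encodes it, stood at 121.24 and 138.7 TPM, and F10, the protease that activates it, at 60.46 and 68.66 TPM. The F2 over F10 ratio was 2.01 ± 0.0105, nearly the same in both libraries. F5, the cofactor of factor X, stood at 4.47 and 6.52 TPM. F10 lies 1.5 kb from F7 and 4.2 kb from Proz on chromosome 8, and these neighbours stood far apart in level.

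The remaining proteases and cofactors ranged widely. F7, which starts the extrinsic pathway with tissue factor, stood at 5.81 and 5.45 TPM. F11, a protease of the intrinsic pathway, stood at 6.32 and 8.07 TPM. F9, the protease of the tenase complex and the gene mutated in haemophilia B, was at 0.46 and 0.96 TPM, from 46 and 86 counts. Its 95% Poisson intervals of 0.337 to 0.614 and 0.768 to 1.19 TPM did not overlap between the libraries. The ratio of F10 over F9 was 131 in replicate 1 and 71.5 in replicate 2, and that of F7 over F9 was 12.6 and 5.68, so F9 was the lowest of these proteases in both.

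F8, the cofactor of factor IX, and Vwf, its carrier, are known as endothelial products, Vwf also of megakaryocytes. F8 stood at 1.64 and 1.19 TPM from 149 counts in each library. Vwf stood at 12.07 and 11.44 TPM, 8.49 ± 1.59 times F8. Short transcripts held part of both, among them Vwf-209 (456 nt, 3.95 and 3.38 TPM) and F8-203 (676 nt, 0.93 and 0.35 TPM). The log2 ratio of Vwf over F8 was 3.07 ± 0.27 in TPM and 3.23 ± 0.08 in expected counts. F3, which encodes tissue factor, was at 0.34 and 0.35 TPM from 23 and 21 counts, with Poisson intervals of 0.216 to 0.510 and 0.217 to 0.535 TPM. The ratio of Tfpi, which inhibits the complex of tissue factor and factor VII, over F3 was 61.4 and 72.6.

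The contact system and factor XIII complete the group. Kng1, a kininogen that carries prekallikrein in plasma, stood at 254.84 and 266.77 TPM, and its paralog Kng2 at 5.26 and 6.18 TPM, a ratio of 45.8 ± 3.73. The paralogs lie 28.4 kb apart and share reads, and the deposited posterior SD of the Kng2 count was 5.71, for a count of 298 in replicate 1. F12, which starts the contact pathway, stood at 50.93 and 53.5 TPM. Of the factor XIII subunits, F13a1, the catalytic A subunit known from megakaryocytes and macrophages, stood at 7.08 and 7.69 TPM, and F13b, the carrier B subunit made by hepatocytes, at 7.11 and 8.89 TPM. Their ratio of 0.930 ± 0.0925 (log2 ratio −0.11 ± 0.14) lay within its spread of 1. In expected counts the log2 ratio was 0.62 ± 0.14, with F13a1 the higher.

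Klkb1 was given no level here. It has no gene row, and its transcript Klkb1-201 is listed under Cyp4v3 with 0 expected counts in both libraries and posterior mean counts of 4.81 and 4.17. A transcript named Gm45753-201 in GENCODE release M21, annotated for nonsense-mediated decay, shares 2267 exon bases with Klkb1 on the same strand. It held 651 and 720 expected counts, or 7.17 and 8.83 TPM. Klkb1-201 is 2753 nt long and Gm45753-201 2496 nt, so each is longer than the shared bases. Reads from the shared bases cannot be told apart, and the authors' model divided them. It gave Gm45753-201 posterior mean counts of 646.73 and 716.23 (SD 4.74 and 3.97), and the SDs for Klkb1-201 were 5.28 and 4.33. The 0 is an estimate of that model and was not taken as a level for Klkb1.

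Inhibitors of coagulation had a median of 19.4 ± 4.43 TPM over 9 genes, and 8 of them reached 1 TPM in both libraries. Their median log2(TPM + 0.1) lay 1.26 ± 0.10 above that of the procoagulant factors, with 1.18 in replicate 1 and 1.33 in replicate 2. By summed TPM the inhibitors came to less, at 0.449 and 0.464 of the procoagulant sum. The median and the sum thus order these roles differently.

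Serpinc1, which encodes antithrombin, was the highest inhibitor, at 292.1 and 343.61 TPM (chromosome 1, 160978585 to 161005863), 2.44 ± 0.0481 times F2. That log2 ratio was 1.29 ± 0.03 in TPM and 0.20 ± 0.03 in expected counts. It ranked 2 among the members by TPM and 7 by counts, with a mean transcript length of 993 nt in replicate 1. Of its TPM, 135.87 and 152.69 were on Serpinc1-204 (742 nt), annotated for nonsense-mediated decay, so the ratio to F2 is not one of coding transcripts alone. Serpinc1-205 (1044 nt) held 148.22 and 180.97 TPM, and Serpinc1-201, the longest at 4970 nt, only 6.65 and 7.52 TPM. The rank by TPM and the ratio to F2 thus rest mainly on short annotated transcripts. The exons of Serpinc1 overlap 2942 bases of Zbtb37 on the opposite strand, which held 213 and 224 counts. Whether counting used strand is not stated in the files or labels. The same holds for Plg, which shares 420 bases with Slc22a3 (181 and 194 counts), and F5 and Fgg overlap antisense RNAs of at most 15.6 counts. Serpind1, heparin cofactor II, stood at 111.38 and 127.86 TPM.

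The protein C pathway, which inactivates factors V and VIII, was uneven. Proc, its protease, stood at 64.85 and 67.73 TPM, and Pros1, the cofactor protein S, at 11.19 and 14.29 TPM, a Pros1 over Proc ratio of 0.192 ± 0.0272. The endothelial receptors were low. Thbd, thrombomodulin, stood at 1.15 and 1.68 TPM and Procr, the protein C receptor, at 0.92 and 1.13 TPM, with Procr over Thbd at 0.736 ± 0.0901. That log2 ratio was −0.45 ± 0.18 in TPM and −0.07 in posterior mean TPM. By posterior mean TPM, Procr stood at 1.19 and Thbd at 1.14 in replicate 1, so their order there depends on the estimate. Proz, the cofactor of the protein Z-dependent inhibitor, stood at 16.29 and 22.55 TPM. Tfpi stood at 20.89 and 25.4 TPM. Tfpi2, a Kunitz inhibitor of plasmin and other proteases, stood at 14.25 and 20.02 TPM.

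The fibrinolysis genes had the lowest median, 3.07 ± 0.0707 TPM over 7 genes, and lay 1.34 ± 0.26 below the procoagulant factors on the log2(TPM + 0.1) scale (a difference of −1.34). Their summed TPM of 580 ± 79.7 lay beside that of the inhibitors, 579 ± 64.5. They split into a high and a low part. Serpinf2 (alpha-2-antiplasmin, chromosome 11, 75431732 to 75439591), which inhibits plasmin, was the highest member of all at 334.44 and 384.03 TPM. Plg, plasminogen itself, stood at 121.44 and 167.03 TPM, 0.399 ± 0.0508 times Serpinf2. Cpb2, a carboxypeptidase that slows fibrin breakdown, stood at 61.09 and 79.27 TPM. Serpinf2 and Cpb2 thus act against the process that the list is named for.

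The activators of plasminogen and their receptor were low. Plat, tissue plasminogen activator, stood at 3.12 and 3.02 TPM, 4.58 ± 0.202 times Plau, urokinase, at 0.66 and 0.68 TPM. Plaur, the urokinase receptor, stood at 2.1 and 1.7 TPM, 2.84 ± 0.482 times Plau. Hrg, a plasma glycoprotein that binds plasminogen and heparin, had the lowest mean of all members, 0.39 and 0.29 TPM from 24 and 16 counts. Its Poisson intervals, 0.250 to 0.580 and 0.166 to 0.471 TPM, overlapped those of F3, so these lowest members are not ordered. Hrg lies 24.2 kb from Kng2, in a cluster with Kng1.

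The genes of the vitamin K cycle and of export had the highest median of the 4 roles, 65.0 ± 1.98 TPM, and all 4 reached 1 TPM in both libraries. Their median log2(TPM + 0.1) lay 2.98 ± 0.18 above that of the procoagulant factors. Their summed TPM was the lowest of the 4 roles, 233 ± 12.1 TPM, or 0.189 and 0.179 of the procoagulant sum. Vkorc1, which recycles vitamin K and is the target of warfarin, stood at 78.06 and 79.77 TPM. Ggcx, the carboxylase it serves, stood at 14 and 17.33 TPM, a Vkorc1 over Ggcx ratio of 5.09 ± 0.688. In counts the log2 ratio was 0.14 ± 0.24, within its spread of 0, and 2.34 ± 0.20 in TPM. Lman1 and Mcfd2 together carry factors V and VIII out of the endoplasmic reticulum. They stood at 83 and 91.23 TPM and at 49.18 and 53.07 TPM, a ratio of 1.70 ± 0.0222. Of the Lman1 TPM, 35.18 and 34.39 were on Lman1-205, a processed transcript of 710 nt that held 11.8% of its counts. The log2 ratio of Lman1 over Mcfd2 was 0.77 ± 0.02 in TPM and 1.16 ± 0.06 in counts. F5 and F8, the known cargo genes of Lman1 and Mcfd2, stood at 4.47 and 6.52 TPM and at 1.64 and 1.19 TPM. Carboxylation and export genes also serve other proteins.

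The 7 vitamin K-dependent proteins, which span the procoagulant and inhibitor roles, had a median of 19.4 ± 4.43 TPM and ran from F9 at 0.710 ± 0.354 to F2 at 130 ± 12.3 TPM. All but F9 reached 1 TPM in both libraries.

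**Figure D2:**
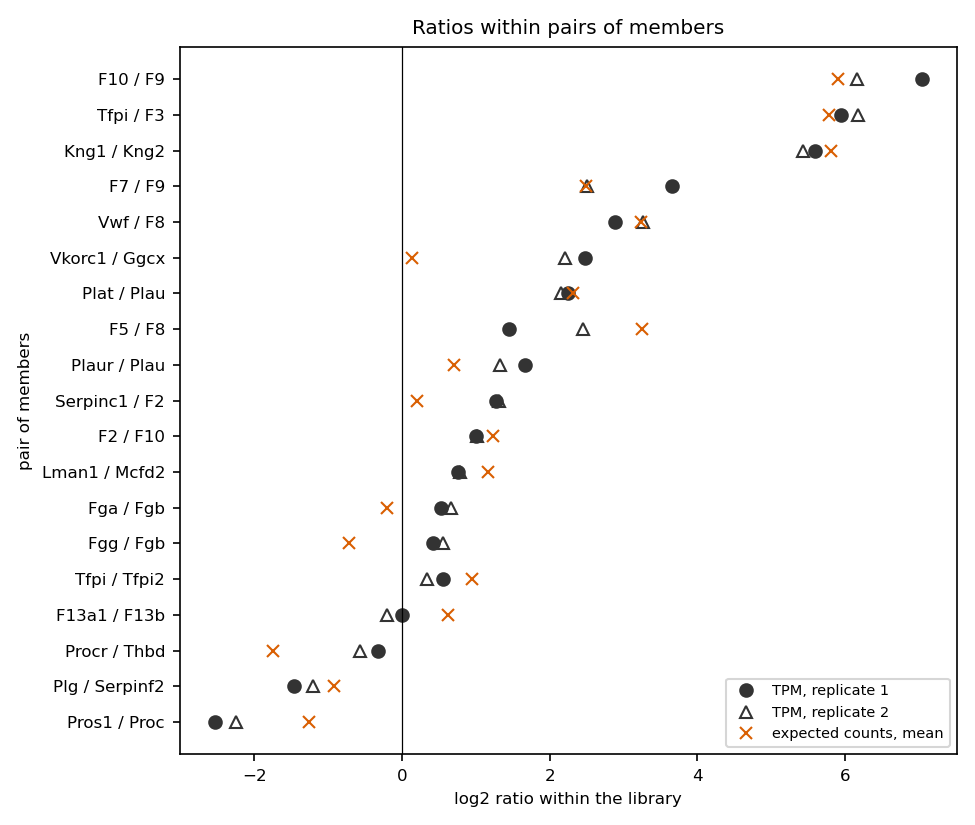
Log2 ratio within each library for 19 pairs of members, in TPM for replicate 1 (filled circles) and replicate 2 (open triangles) and as the mean of expected counts (crosses). Fga over Fgb and Fgg over Fgb lie above 0 in TPM and below 0 in counts.

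Of the 30 other genes of the pathway, which were receptors, further inhibitors, modifiers and proteins of clot remodelling, 24 reached 1 TPM in both libraries, beside the 52.1% of protein-coding genes. The 6 highest were Anxa2, S100a10, Tgm2, F2r, Pzp and Habp2. Anxa2 and S100a10, which together bind plasminogen at the cell surface, stood at 87.3 ± 4.50 and 63.1 ± 0.891 TPM. Tgm2, a transglutaminase, stood at 59.2 ± 2.54 TPM, and F2r, the thrombin receptor PAR1, at 43.6 ± 6.72 TPM. Pzp, a broad protease inhibitor, and Habp2, a plasma protease, stood at 43.4 ± 7.98 and 36.9 ± 6.46 TPM.

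TPM and counts ordered the members alike in outline, as the plot of TPM against counts shows, and differed for genes with short or long transcripts. Fgb, ranked 6 by TPM, ranked 2 by counts. Vkorc1, ranked 11 by TPM, ranked 16 by counts, and F5, with a length of 7430 nt, ranked 28 by TPM and 20 by counts.

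**Figure D3:**
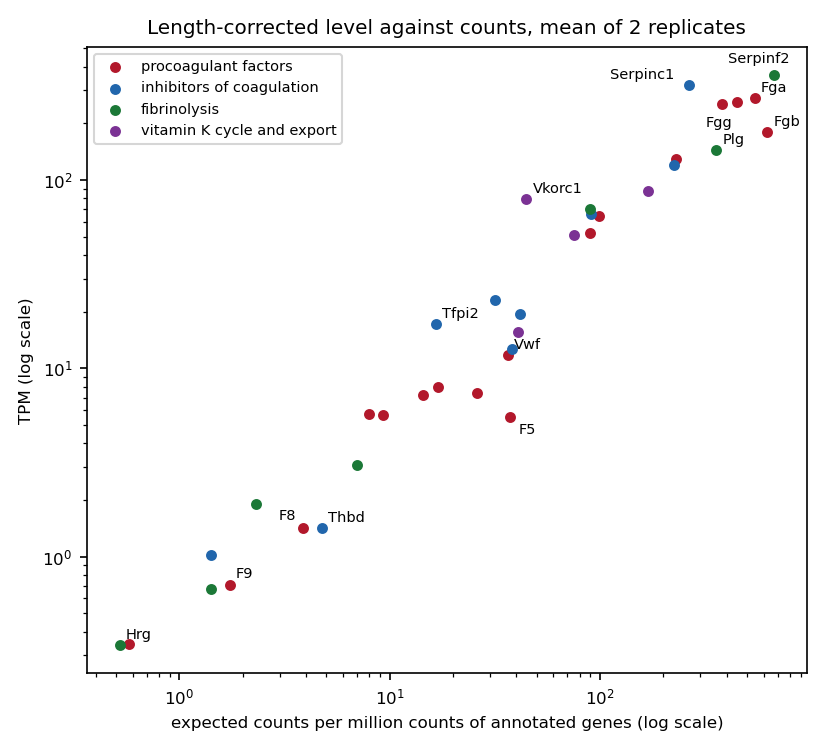
Mean TPM against mean expected counts scaled by the total of annotated genes (CPM, both log axes) for the 37 members with a gene row, colored by role. Serpinc1, Vkorc1 and Tfpi2 lie above the trend and F5 and Fgb below it.

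Transcripts of 31 members had at least 100 counts in both libraries, and 21 of these have several annotated transcripts. In 19 of the 21 the same transcript led in both libraries by share of the TPM of the gene, and in 10 its mean share exceeded 80%. The exceptions by the naming rule were F8, Lman1, Tfpi and Vwf. For Lman1, Lman1-205, annotated as a processed transcript of 710 nt, held 42.4% and 37.7%, and Lman1-201 held 39.8% and 43.1%, so the leader differed. By counts Lman1-201 held 69.3%.

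For Vwf the leader by TPM was Vwf-209, a processed transcript of 456 nt with 31.1% ± 2.25 but 53.3 and 41.0 counts. By counts Vwf-203, the coding transcript of 8834 nt, held a mean of 54.1%, with 38.1% in replicate 1 and 70.1% in replicate 2. A transcript of 8817 nt with no entry in release M21 held 27.9% and 0.455% of counts. For F8 the leader was F8-203 of 676 nt in replicate 1 (57.1%) and F8-202 of 7295 nt in replicate 2 (39.2%), and F8-202 held 69.7% of counts. The F8 counts were 149 in each library, whereas its TPM values were 1.64 and 1.19, with the transcript shares differing between the libraries. Tfpi-201 held 49.2% ± 0.0634 of Tfpi.

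For Serpinc1 the share was divided mainly between Serpinc1-205 (annotated as coding, 1044 nt), with 51.7% ± 1.36, and Serpinc1-204 (742 nt, annotated for nonsense-mediated decay), with 45.5%. By counts Serpinc1-204 held 32.7%. Serpinc1-201, also annotated as coding and the longest at 4970 nt, held 2.23% of the TPM and 12.2% of the counts. For Serpind1, 50.7% ± 0.502 was on a transcript with no entry in release M21 and 49.3% on Serpind1-201. Shares of overlapping transcripts are estimates of the authors' model.

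**Figure D4:**
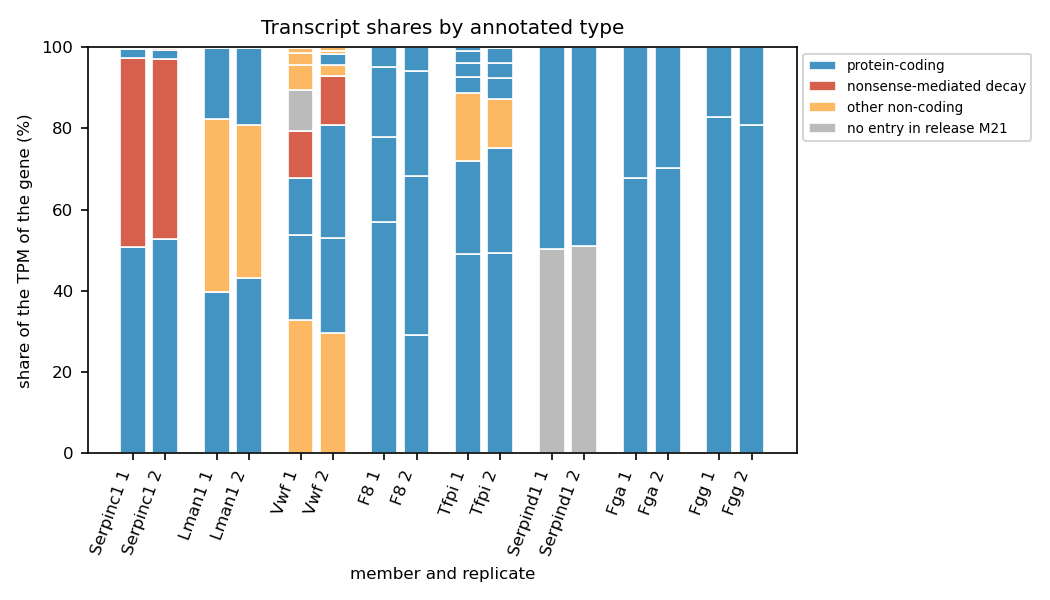
Share of the TPM of the gene (percent) in each annotated transcript, one stacked bar for each member and replicate, colored by the annotated type. Lman1, Vwf, F8 and Tfpi are those that the naming rule selected, and Serpinc1, Serpind1, Fga and Fgg are shown beside them.

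Between the replicates, ratios of replicate 2 over replicate 1 were taken on expected counts scaled by TMM. All 37 members had a mean count of at least 10. Their median log2 ratio was 0.04, against 0.00 over 15997 genes, and their median absolute log2 ratio was 0.13, against 0.15. The members' median was thus no larger than that of all genes. Members and all genes were not matched for depth, so this comparison does not rank their spread.

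Only F9 lay beyond 1.5-fold, at 1.86-fold higher in replicate 2 (log2 ratio 0.89, 95% counting interval 0.37 to 1.45), and none lay beyond 1.5-fold lower. Over all genes, 3.43% were more than 1.5-fold higher and 4.73% more than 1.5-fold lower. The 95% counting interval lay above 0 for 17 members and below 0 for 6, against 20.4% and 18.4% of all genes tested. It covers counting error only and is narrower for genes with more counts, so these shares are not at matched depth. Tfpi2 had a log2 ratio of 0.42, Thbd and F5 of 0.39, Proz of 0.31 and Plg of 0.30, and Hrg was lowest at −0.57 with an interval of −1.60 to 0.39.

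Scaling by the spike-ins moved the ratio of every gene by −0.64 and changed this picture. Under it 36 of the 37 members were below 0. The shift was the same for every gene and the share of all genes below 0 was not taken, so this count does not set the members apart. More than 1.5-fold lower were 19 of the 37 members, against 59.5% of all genes. The F9 log2 ratio became 0.26. All directions between the replicates are therefore relative to the scaling by TMM.

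Other markers moved between the replicates as well. The summed TPM of 7 heart markers, led by Actc1 and Myl7, was 36.8 in replicate 1 and 93.9 in replicate 2, and all 7 were higher in replicate 2 on the TMM scale. Of 12 endothelial markers 11 were higher in replicate 2. The members named above as endothelial, with Vwf also known from megakaryocytes, were mixed, and other members with endothelial sources were not sorted out. Thbd had a log2 ratio of 0.39, Procr of 0.21 with an interval of −0.36 to 0.79, F8 of 0.00 and Vwf of −0.12. Of the granulocyte and monocyte markers, 9 of 10 were lower in replicate 2, as were all 6 skeletal muscle markers. The other lists were divided, with 7 hepatoblast markers higher and 6 lower in replicate 2. Higher and lower were 4 and 8 megakaryocyte and platelet markers, 4 and 7 macrophage markers, and 4 and 6 erythroid markers. For stellate and mesenchymal markers these numbers were 4 and 7, for mesothelial markers 4 and 3, and for neuron markers 2 and 2. The part of any of these markers in the members' ratios was not tested.

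**Figure D5:**
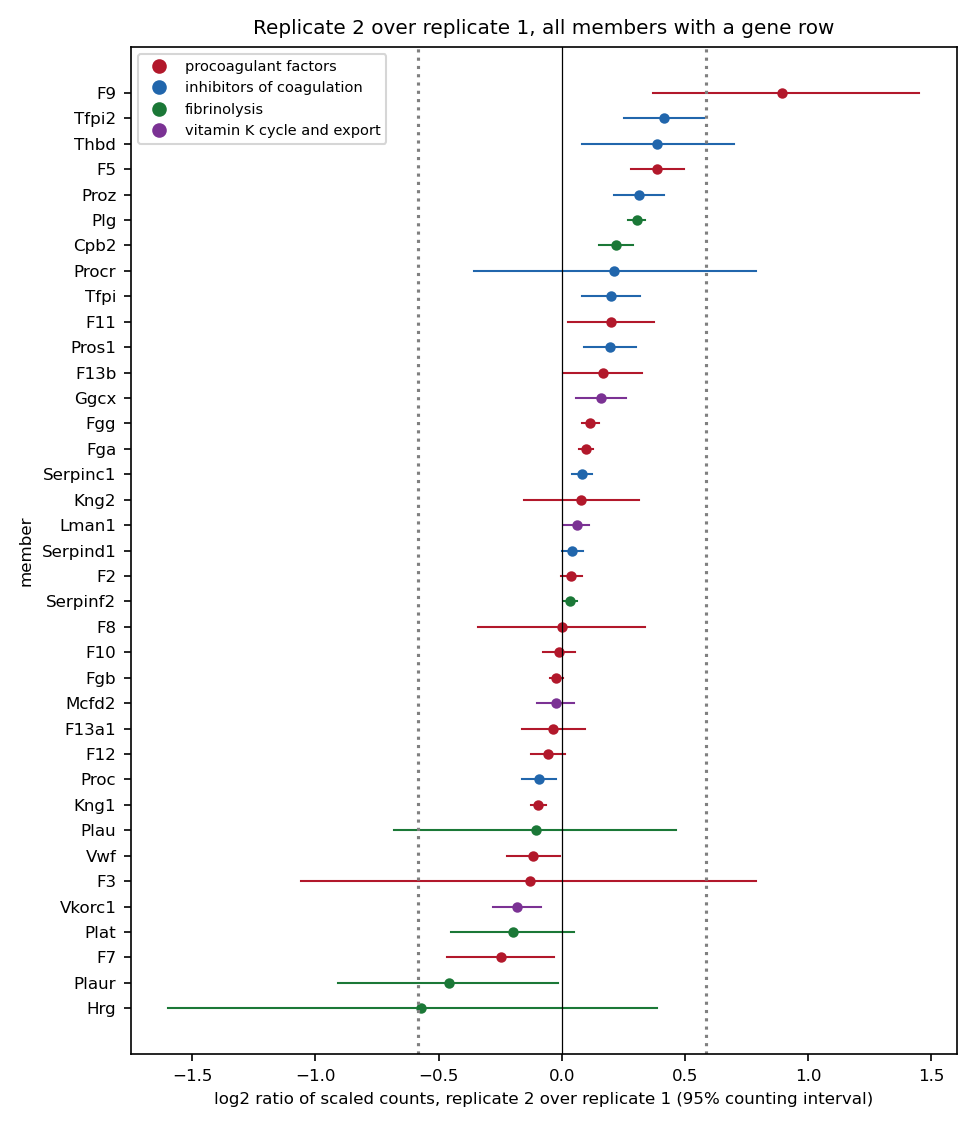
Log2 ratio of TMM-scaled counts, replicate 2 over replicate 1, for 37 members (points) with exact 95% counting intervals (lines), colored by role; dotted lines mark 1.5-fold. F9 is the only point past the upper line, and Hrg, F3, Plau, Procr and F9 have the widest intervals.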

How the data were processed

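Expected counts, FPKM and TPM per gene and per transcript came from the authors' deposited tables, one pair for each of 2 libraries of embryonic liver. Per the deposited readme they rest on build mm10 with GENCODE release M4; for aligner and counting software, not given in the sources used here. Expected counts divide reads that fit several features, per the file headers, and the posterior SD of the count is a deposited score. The authors scaled TPM to 1 total per library that includes spike-ins and transfer RNA entries, and FPKM and the deposited percent of each transcript gave no printed value. Gene IDs were matched to symbols of GENCODE release M21 on GRCm38, the assembly of mm10. Transfer RNA entries and spike-ins stayed out of gene totals, and genes with no symbol held 0.154% and 0.163% of gene counts.

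Levels are TPM per replicate and mean ± SD (n = 2), with 0.1 added on the log2 scale. Ratios between replicates used log2 of expected counts plus 0.5, scaled with TMM (edgeR 4.0.16, R 4.3.3, counts rounded), with a minimum mean count of 10 per gene; DESeq2 1.42.0 size factors, totals and spike-ins were alternatives. With 1 group there is no test and no p-value. Poisson intervals (TPM) and exact binomial intervals (ratios) are at 95% and cover counting error only, since the tables carry no molecular identifiers, and low genes have the widest. For the ratio step, simulated libraries of 15998 genes served as a test: true folds of 1.5, 2, 4 and 8 gave median log2 ratios of 0.58, 1.05, 1.94 and 2.98. There 6.04% of unchanged genes and 47.9% of those with a true fold of 1.5 passed the 1.5-fold threshold. The simulated spread was a fixed setting for all genes, not estimated from these libraries, so these are not error rates of the real pair. All 38 members are named, of the other pathway genes the 6 highest, of each marker list its highest 2, and transcripts by a rule on share, type and change of leader. The members and lists were chosen with earlier results of these data known. Python 3.11.15 with numpy, pandas, scipy and matplotlib was used.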

Additional observations from a re-analysis of the deposited data

Results flagged for a closer look

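Klkb1 is the one member with no gene row. A row outside the main measurement holds counts on its exons. The transcript Gm45753-201, which shares 2267 exon bases with Klkb1, held 651 counts in replicate 1 and 720 counts in replicate 2. Klkb1-201 had 0 expected counts and posterior mean counts of 4.81 and 4.17, as the authors' model divided the shared reads. Which of the 2 transcripts the reads came from was not tested.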

How the results depend on the processing

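The count of members at 1 TPM was 32 and ranged from 29 to 34 over thresholds of 0.5 and 2 TPM, posterior mean TPM and each replicate alone. The share of TPM was 0.273%, became 0.475% over expected counts and 0.406% with globin genes left out of the total, and was 0.251% and 0.294% in each replicate alone. The 4 medians and differences of the roles moved by less than 1 SD under pseudocounts of 1 and 0.01, the filter on mean counts, posterior mean TPM and, chosen after seeing the data, Klkb1 at 0 TPM or at the TPM of the transcript sharing its exons. The count of members beyond 1.5-fold was 1 with TMM, with DESeq2 size factors, with totals and without the filter, 19 with spike-in scaling and 0 at a threshold of 2-fold. Of the 19 pair ratios, Fga over Fgb and Fgg over Fgb turned to −0.20 and −0.72 in expected counts, 15 others moved by more than 1 SD there and 2 did not. Of the 15, F13a1 over F13b changed sign, to 0.62, from a TPM value within 1 SD of 0. Posterior mean TPM moved 1 pair ratio, that of Procr over Thbd, and 0.1 added to both values moved 2. The leading share moved for all 4 named transcripts when taken over expected counts. No paired analysis was possible because the series has a single group. Depth limits the members with under 100 counts, F3, F9, Hrg, Plau and Procr in both libraries and Plaur in replicate 2.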
